A study of Mus musculus with 4 samples.

Results

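GATA2 CUT&Tag summits lying within 1000 bp of the start or end of a protein-coding gene are described here, in sorted germ cells from E13.5 mouse ovaries, E being the days of embryonic development counted from the mating plug. A summit was kept when the distance to the nearest gene boundary, of either kind and on the same chromosome, was at most 1000 bp. This rule used position alone, but members and tests were chosen with earlier results of these data known. Of the 995 summits in the deposited list, 365 were kept ("boundary summits"), in 350 intervals and at 348 different genes. These genes were 1.59% of the 21900 protein-coding genes annotated. By strand, 292 of the 365 were nearest to a gene start and 7 to a gene end, and for the other 66 the strand was not used here.

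The 4 samples comprised 2 libraries made with a rabbit antibody to GATA2 (Abclonal) and 2 input libraries without antibody, with a replicate 1 and a replicate 2 of each. All came from the same kind of cells. C57BL/6J females were mated with BVSC males, which carry the reporter transgenes Blimp1-mVenus and Stella-ECFP, and BVSC+ germ cells were purified from fetal ovaries after trypsin digestion. The transgenes are named for the germ cell genes Prdm1 (BLIMP1) and Dppa3 (STELLA). The deposited list is a single combined one and was taken as pooled over both GATA2 libraries, so no value below has a spread between replicates, and the sources used here do not say which libraries served as its control.

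GATA2 is a zinc finger transcription factor best known for its roles in blood progenitors and endothelium, and it binds DNA at a short sequence with GATA at its centre. In CUT&Tag the antibody tethers the transposase Tn5 to chromatin, which is cut and tagged around the bound factor. Tn5 also prefers accessible DNA, and active promoters are among the most accessible sites of a genome. Many mammalian promoters are rich in CpG dinucleotides, and some genes are arranged head to head on opposite strands so that a short stretch of DNA serves as the promoter of both.

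The promoter letters of some genes with strong start summits are shown first, because the GATA motif is present in some of them and absent from others. The DNA is that of RefSeq (GRCm38.p6), read 5′ to 3′ along the gene's strand and limited to untranscribed bases before the gene start. Capitals mark a GATA motif (the letters AGATAA, else the letters AGATAG, else the letters TGATAA, else the letters TGATAG, on either strand, so that TTATCT is AGATAA read on the other strand). Positions are counted from the promoter table's start, which is 0. The promoters of highest fold with a motif were those of Stk40, encoding a kinase-like signalling protein (chr4:126103707-126103941, plus strand, motif at -106 to -101), Npc2, encoding a lysosomal cholesterol carrier (chr12:84773113-84773229, minus strand, motif at -62 to -57), Nfatc2ip, encoding a partner of the NFAT factors (chr7:126396797-126396987, minus strand, motif at -145 to -140), and Sp1, encoding the factor that binds GC boxes (chr15:102406066-102406315, plus strand, motif at -69 to -64). The Sp1 summit lay at -421, outside the stretch shown and away from its motif, while those of Stk40 and Nfatc2ip lay within theirs and that of Npc2 at 7, just past its end. The 117 bases shown for Npc2 are the whole stretch between its start and that of its head-to-head neighbour Isca2. At Slc25a23, a gene for a mitochondrial carrier, the motif lay in the transcribed part and is not printed. The start summit of highest fold, at Zbtb20, had no promoter-table start within 1000 bp, so its promoter was not read.
Stk40: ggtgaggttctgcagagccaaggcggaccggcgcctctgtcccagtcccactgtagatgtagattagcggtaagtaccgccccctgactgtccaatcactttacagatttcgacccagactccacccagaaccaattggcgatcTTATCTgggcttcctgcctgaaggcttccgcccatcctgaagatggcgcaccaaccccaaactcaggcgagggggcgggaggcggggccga
Npc2: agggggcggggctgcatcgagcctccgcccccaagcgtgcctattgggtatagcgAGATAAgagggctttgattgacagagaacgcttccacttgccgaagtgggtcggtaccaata
Nfatc2ip: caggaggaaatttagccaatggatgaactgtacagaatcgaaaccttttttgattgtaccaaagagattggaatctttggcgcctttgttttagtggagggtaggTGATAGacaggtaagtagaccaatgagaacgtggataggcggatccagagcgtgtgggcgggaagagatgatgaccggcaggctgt
Sp1: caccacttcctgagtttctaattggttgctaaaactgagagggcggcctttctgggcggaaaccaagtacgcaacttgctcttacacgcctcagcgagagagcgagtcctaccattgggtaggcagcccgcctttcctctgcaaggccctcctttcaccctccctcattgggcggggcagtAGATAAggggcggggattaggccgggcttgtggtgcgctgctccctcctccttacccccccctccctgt

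The next promoters carried summits of 10.6-fold to 11.6-fold and held no GATA motif as defined above in the whole window of 300 bases. The shorter letters GATA alone, with other letters beside them, did occur in the bases shown for Psat1 and Got1. They belong to Psat1, encoding an enzyme of serine synthesis (chr19:15925060-15925309, minus strand), Ift20, encoding a subunit of the ciliary transport machinery (chr11:78536271-78536360, plus strand), and Got1, encoding the cytosolic aspartate aminotransferase (chr19:43524606-43524855, minus strand). The windows of Psat1 and Got1 contained a CCAAT box (CCAAT), and that of Ift20 a GC box (GGGCGG).
Psat1: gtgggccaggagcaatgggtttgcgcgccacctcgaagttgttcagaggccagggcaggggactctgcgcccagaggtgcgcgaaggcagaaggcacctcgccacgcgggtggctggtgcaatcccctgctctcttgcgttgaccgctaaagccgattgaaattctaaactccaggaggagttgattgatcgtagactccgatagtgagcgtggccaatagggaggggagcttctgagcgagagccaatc
Ift20: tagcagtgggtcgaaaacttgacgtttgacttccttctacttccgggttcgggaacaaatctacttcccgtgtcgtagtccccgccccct
Got1: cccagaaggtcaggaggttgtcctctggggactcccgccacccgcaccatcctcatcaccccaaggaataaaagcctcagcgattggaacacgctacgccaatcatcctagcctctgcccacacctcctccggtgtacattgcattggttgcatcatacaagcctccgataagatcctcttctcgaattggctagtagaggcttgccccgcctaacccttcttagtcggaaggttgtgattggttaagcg

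Boundary summits were almost all at gene starts. Where strand was known, 292 of 299 (97.7%, exact 95% interval 95.2% to 99.1%) were nearest to the start of their gene. If all 66 summits of unused strand lay at gene ends, the share would still be 80.0% of 365. Relative to the annotated start, the median position was -40.5 bp, with quartiles of -190.5 and 131 bp. Within 100 bp of the start lay 89 summits (30.5%), within 250 bp 192 (65.8%) and within 500 bp 259 (88.7%). Upstream of the start were 168 (57.5%, exact interval 51.6% to 63.3%), and 124 lay at or downstream of it. A gene's annotated start is the outermost of its transcripts, and it was also a start of the promoter table for 156 of the 292. Measured from the promoter table's start instead, for the 280 summits with one within 1000 bp, the median was -110 bp and 195 (69.6%) were upstream.

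**Figure D1:**
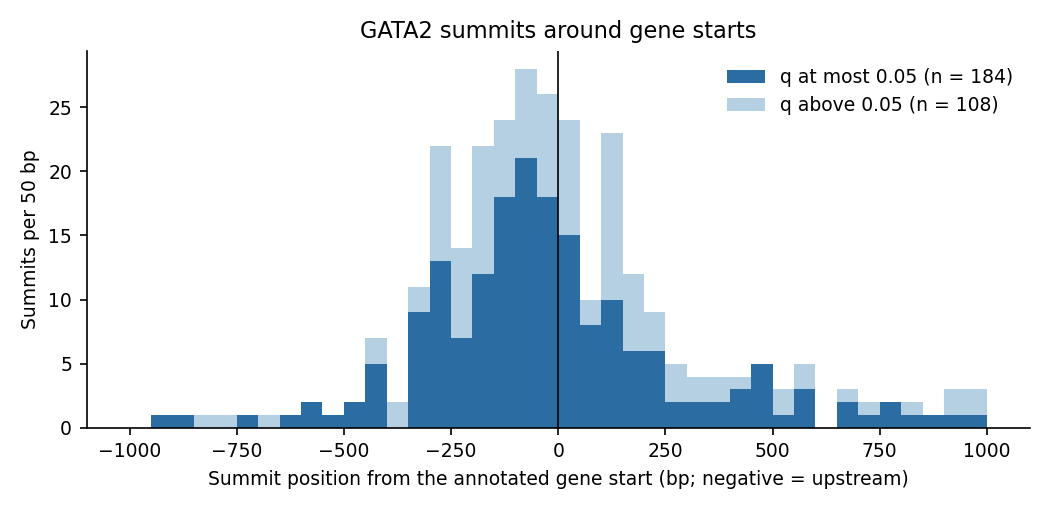
Number of start summits per 50 bp (vertical axis) by distance from the annotated gene start in bp (horizontal axis, negative is upstream), with dark bars for the 184 summits with a q of at most 0.05 and light bars for the 108 above it. Both kinds gather around the start, and 192 of the 292 lie within 250 bp of it.

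The values at a summit are the peak caller's own. The fold is its ratio of the scaled GATA2 signal to the local background with 1 added to both, and q is its adjusted p-value. Depth was not given, and the number of GATA2 fragments over each summit was inferred from fold and p. Fragment numbers are unscaled, while control backgrounds are on the caller's scale, on which 1 GATA2 fragment counts as 0.378. For 217 of the 995 summits more than 1 number was possible, and the one nearest to a whole number, with a preference for the genome-wide background, was taken. Boundary summits had a median of 9 fragments (quartiles 7 and 11, range 6 to 51) and a median fold of 4.07 (quartiles 3.44 and 4.86, range 2.91 to 19.1). The other 630 summits had a median of 10 fragments (quartiles 8 and 14) and a median fold of 4.35 (quartiles 3.63 and 5.47). A count of 9 fragments has a Poisson 95% interval of 4.12 to 17.1, so single weak summits cannot be ranked. All such intervals cover counting error only.

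Boundary summits passed a q of 0.05 less often than the others. The share was 228 of 365 (62.5%, exact 95% interval 57.3% to 67.5%) against 446 of 630 (70.8%, 67.1% to 74.3%), and 67.7% over the whole list (Fisher's exact test, two-sided p = 0.00751, adjusted p = 0.0300 over 4 comparisons). A fold of 5 or more was reached by 20.8% of boundary summits and 31.3% of the others (Fisher's exact test, adjusted p = 0.00157). The share passing q was 67.1% at 1 to 5 kb from a boundary, 72.8% inside genes beyond 5 kb and 71.1% between genes beyond 5 kb. The control background exceeded the genome-wide level at 26.0% of boundary summits and 32.2% of the others, and its part in the difference was not tested. Summits of one list share their libraries, so these tests compare positions within the list and not animals. At the top of the scale, 12 of the 33 summits of 10-fold or more were boundary summits, a share close to the 365 of all 995. Of these, 11 were at starts and 1 at Porcn, whose strand was not used.

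**Figure D2:**
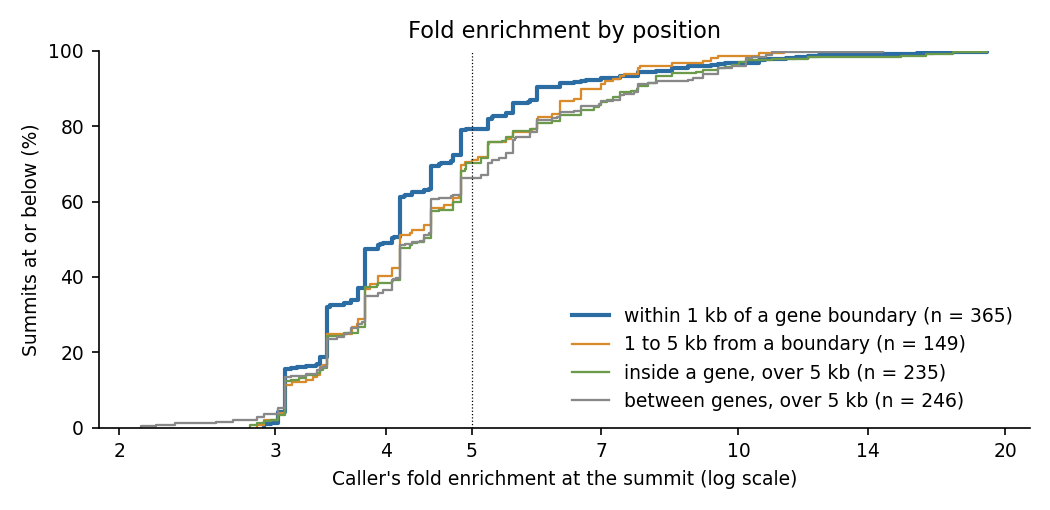
Cumulative share of summits in percent (vertical axis) by the caller's fold enrichment (horizontal axis, log scale), one line per position class, with a dotted line at a fold of 5. The line for the 365 boundary summits lies above the other 3 between folds of 4 and 7, with 20.8% of boundary summits at a fold of 5 or more against 31.3% of the other 630.

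The strongest start summits stood at genes of several different functions. At Zbtb20, a gene for a zinc finger repressor, 51 fragments (Poisson 95% interval 38.0 to 67.1) lay over the summit 71 bp upstream of the start, a fold of 19.1 and a −log10 q of 34.4. Stk40 followed with 44 fragments (32.0 to 59.1) 109 bp upstream, at 16.6-fold. Tcf3, encoding the E proteins E12 and E47 that pair with other helix-loop-helix factors, had 42 fragments (30.3 to 56.8) 28 bp inside the gene, at 15.9-fold. The intervals of these 3 counts overlap, so their order is not fixed at this depth.

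Npc2 had 39 fragments (27.7 to 53.3) 7 bp inside the gene, at 14.6-fold. Cs, the gene of citrate synthase, had 32 fragments (21.9 to 45.2) 11 bp upstream, at 12.3-fold, and Psat1 had 30 (20.2 to 42.8) 55 bp upstream, at 11.6-fold. Slc25a23 had 31 fragments at 11.3-fold, but 644 bp upstream of the gene. Ift20, Srgap2, Got1 and Csrnp1 had 27 or 28 fragments each, at 10.6-fold or 10.7-fold, and Lrrc8d had 25 at 9.66-fold. Csrnp1 encodes a nuclear factor and Lrrc8d a subunit of a volume-regulated anion channel. The Csrnp1 summit was the only one of the 12 strongest deep inside its gene, 592 bp past the start.

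Porcn, which encodes the acyltransferase that lipidates WNT proteins, was the strongest of the genes whose strand was not used, with 31 fragments (21.1 to 44.0) 534 bp outside the gene (12.0-fold). A weaker summit of the same interval lay 144 bp outside it (11 fragments, 4.86-fold). As a group, the 66 summits of unused strand had a median fold of 3.79 and 37 of them (56.1%) reached a q of 0.05.

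The 7 summits nearest to a gene end were of middling strength. Their folds ran from 4.15 to 5.93, and all 7 had a q of at most 0.05, against 184 of 292 (63.0%) at starts (Fisher's exact test, p = 0.0516, adjusted p = 0.103, which misses the threshold). None of the 7 reached 10-fold. Beyond the end of their gene lay those of Akr1d1, a gene of bile acid synthesis (746 bp beyond, 14 fragments, 5.93-fold), Mcoln2, encoding a lysosomal cation channel (916 bp, 11 fragments, 4.86-fold), Tmem107, encoding a ciliary transition zone protein (237 bp, 11 fragments, 4.86-fold), and Icam4, encoding an adhesion molecule of red blood cells (380 bp, 10 fragments, 4.50-fold). Inside the gene lay those of Lars2, encoding the mitochondrial leucyl-tRNA synthetase (669 bp before its end), Id3 (621 bp) and Cd9, encoding a tetraspanin (710 bp, 9 fragments, 4.15-fold). The Lars2 summit had 35 fragments but only a 4.74-fold enrichment. Its control background was 2.0 on the caller's scale, against 0.0608 across the genome. A gene start of known strand lay within 1000 bp of only 1 of the 7, that of Id3, and it was the start of Id3 itself. Starts of genes whose strand was not used could not be counted.

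Head-to-head gene pairs were counted where the 2 starts, on opposite strands and facing away from each other, were at most 1000 bp apart. Of the 292 start summits, 43 (14.7%, exact 95% interval 10.9% to 19.3%) were at such a pair, 39 different pairs in all, against 6.62% of the 17492 protein-coding starts of known strand. At 20 of the 43 the summit lay between the starts, and 41 of the 43 were within 1000 bp of both. The starts were 284 bp apart at the median (15 to 641 bp), against 101 bp for all 583 pairs. With partners that make long non-coding RNA included, the share was 62 of 292 (21.2%) against 9.90% of all starts. Genes whose heads overlap added 14 start summits (4.79%, against 3.62% of all starts). The q threshold of 0.05 was met at 30 of 43 pair summits (69.8%) and at 154 of 249 other start summits (61.8%, Fisher's exact test, p = 0.393, adjusted p = 0.524).

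Npc2 and Isca2, the latter a gene for mitochondrial iron-sulphur cluster assembly, formed the pair with the highest fold (14.6). Ift20 and Tnfaip1, encoding an adaptor for a ubiquitin ligase, followed at 10.7-fold, with their starts 91 bp apart. The summit of Aldh6a1, an enzyme gene of valine breakdown, and Lin52, a gene of the DREAM cell cycle complex, lay between starts 484 bp apart (21 fragments, 8.42-fold). The same fold was found at Cryzl1, a quinone oxidoreductase-like gene, and Itsn1, a gene of endocytosis, here 206 bp inside Cryzl1.

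The 4 pairs next in fold were weaker. Btf3l4, related to a nascent chain-binding factor, and Txndc12, a thioredoxin-like gene of the endoplasmic reticulum, stood at 7.35-fold. Ttc13 and Arv1, the latter a gene of sterol transport, stood at 5.93-fold with starts 15 bp apart. Mmab and Mvk, for cobalamin metabolism and for mevalonate kinase, stood at 5.27-fold. Nup88, a nuclear pore gene, and Rpain, for an importer of replication protein A, stood at 4.86-fold with 11 fragments, the same values as at Pdcd10 and Serpini1, Map3k10 and Zfp607b, and Med29 and Paf1, so its place among the first 8 is arbitrary. The imprinted pair Peg3 and Usp29, chosen here after its values were seen, had a summit 921 bp inside Peg3 (11 fragments, 4.29-fold).

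**Figure D3:**
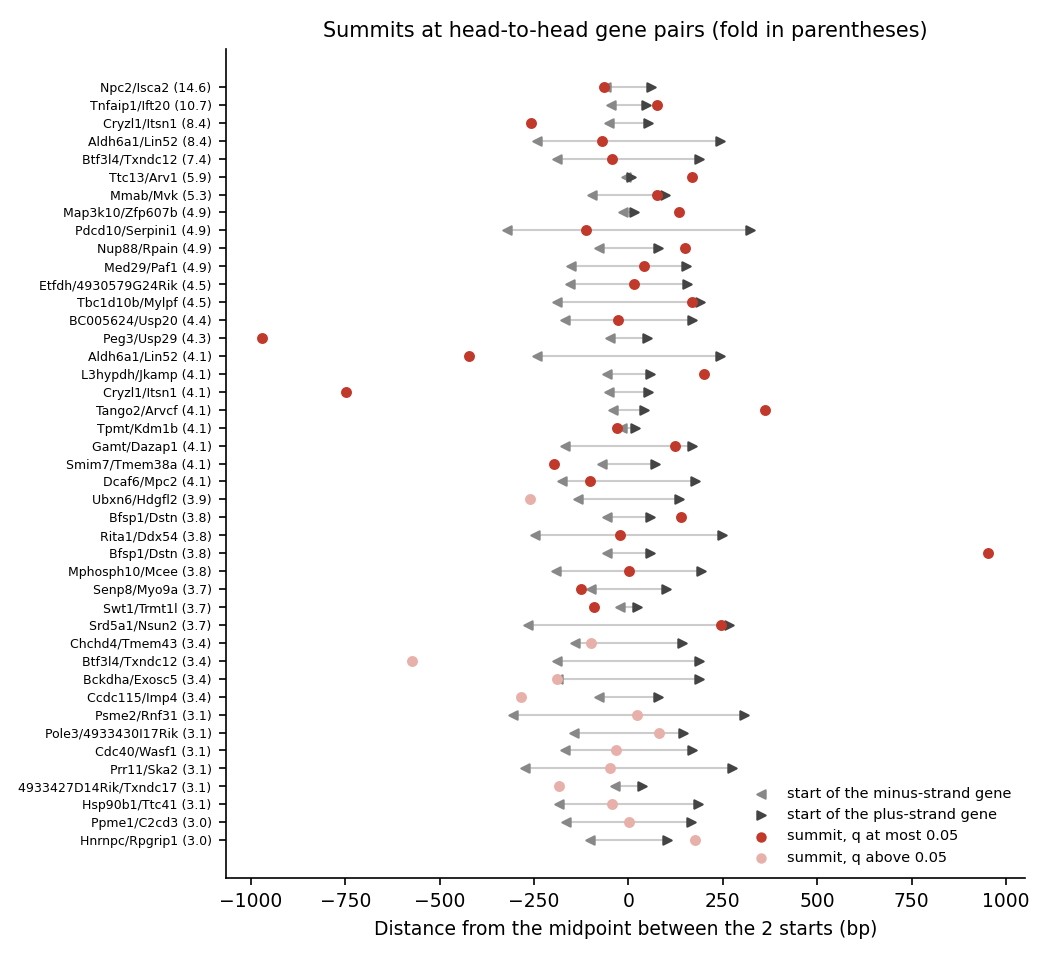
The 43 summits at head-to-head pairs, one row each in order of fold, with triangles for the starts of the minus-strand and plus-strand genes and a circle for the summit, by distance in bp from the midpoint between the starts. Dark circles have a q of at most 0.05 (30 of 43), and 20 of the 43 circles lie between the triangles.

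More than 1 gene could claim many of the summits. Within 1000 bp of 95 of the 365 (26.0%) lay boundaries of 2 or more protein-coding genes. In the other direction, 332 genes had 1 boundary summit and 16 had 2 or more, and at 12 of those 16 all summits were in 1 interval. The 16 were Aldh6a1, BC051142, Btf3l4, Celf6, Cic, Cryzl1, Dppa3, Dstn, Fyco1, Hnrnpul2, Id3, LOC114841036, Lnpep, Map2k2, Porcn and Zfpm1. Id3, encoding an inhibitor of E proteins, was marked at both of its ends, 20 bp inside the start and 621 bp before the end, with 10 fragments and 4.50-fold at each. At the limit of the rule, the last 3 inside were at Mtrf1l (964 bp, 3.44-fold), Prss57 (974 bp, 6.64-fold) and Galk1 (985 bp, 4.60-fold), and the first 3 outside at Yipf6 (1001 bp, 4.86-fold), Garnl3 (1047 bp, 8.42-fold) and Dppa3 (1083 bp, 4.84-fold).

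The promoters at start summits were mostly CpG-rich. Windows of 300 bases, from 250 before to 50 after a start of the RefSeq promoter table, were available for 268 genes with a start summit and for 17492 protein-coding genes in all. A window was called CpG-rich with a GC content of at least 50% and an observed-to-expected CpG ratio of at least 0.6, and 81.3% of the 268 were so, against 45.8% of all. The median GC content was 61.5% against 56.3%, and the median CpG ratio 0.798 against 0.577. For genes with several starts the window nearest the summit was taken, and in the full set the one nearest the annotated gene start.

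The GATA motif was about as common at start summits as in promoters at large. It was found in 64 of 268 windows (23.9%, exact 95% interval 18.9% to 29.4%) against 26.7% of all promoter windows. Within CpG-rich windows alone, a split added after the data were seen, it was found in 48 of 218 (22.0%, 16.7% to 28.1%) against 12.8% of all 8004. The 4 letters GATA on either strand, which the longer motif contains, were found in 59.7% against 54.0%, and within CpG-rich windows in 56.4% against 36.3%. So the direction of the difference for the 6-letter motif turned with the class of window. The share with a q of at most 0.05 was 42 of 65 (64.6%) for start summits whose promoter window held a motif. It was 136 of 215 (63.3%) for those whose window held none (Fisher's exact test, p = 0.884, adjusted p = 0.884). Only 149 of these 280 summits lay inside the window, so the comparison is of promoters and not of the bases at the summit. The difference of 1.36 percentage points has wide margins, since the exact interval of the first share runs from 51.8% to 76.1%. In 147 genes the window held the summit itself, 43 of these windows had a GATA motif, and in 26 the motif was within 50 bp of the summit (median over the 43, 40 bp). These matches are descriptions of letters and were not compared with shifted positions.

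Other promoter motifs were read in the same windows, on both strands. The CCAAT box, bound by NFY, was found in 57.8% of the 268 windows against 39.2% of all, and in CpG-rich windows in 60.6% against 37.4%. The GC box, bound by SP1 and its relatives, was in 73.1% against 46.3%, but in CpG-rich windows the gap was smaller, 81.7% against 76.8%. A YY1 motif (AAGATGG) was in 11.2% against 6.35%, and in CpG-rich windows in 10.1% against 7.05%. The TATA box (TATAAA) was in 6.72% against 13.3%, and in CpG-rich windows in 5.96% against 4.81%. An AP-1 motif (TGANTCA) was in 2.99% against 7.03%, and in CpG-rich windows in 5 of 218 against 3.17% of all. The order of the shares thus turned with the class of window for the TATA box. For the next 3 the order or the gap changed with it too. The ETS motif (CCGGAAG) was in 12.7% against 11.9%, but in CpG-rich windows in 15.1% against 20.2%. The NRF1 motif (GCATGCG) was in 4.48% against 4.50%, and in CpG-rich windows in 4.59% against 7.83%. The E-box (CACGTG) was in 10.8% against 7.91%, and in CpG-rich windows in 11.5% against 11.7%. None of these shares was tested.

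**Figure D4:**
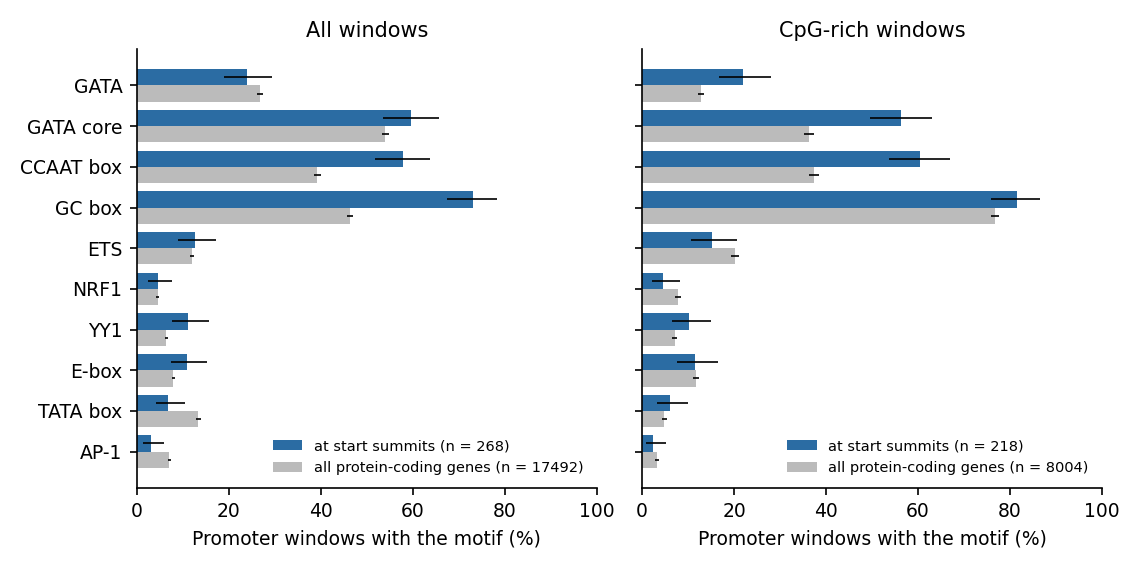
Share of promoter windows in percent that hold each motif, for genes with a start summit (blue) and all protein-coding genes (grey), over all windows (left) and CpG-rich windows (right), with exact 95% intervals as lines. The GATA bars overlap within their intervals on the left (23.9% against 26.7%) and are 22.0% against 12.8% on the right, and the CCAAT bar is higher at start summits in both.

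Of the 348 genes, 37 were not placed in a role, and the others were spread over 10 broad roles, of which the largest held 56. Roles were assigned by hand from general knowledge of each gene after the members were known, so the shares describe the members and have no background. Signalling held 56 genes, with Stk40, Porcn and Srgap2 of highest fold. Metabolism and mitochondria held 45, led by Cs (12.3-fold), Psat1 (11.6-fold) and Got1 (10.6-fold), and followed by Aldh6a1 (8.42-fold). Transcription factors and cofactors numbered 40, led by Zbtb20, Tcf3 and Csrnp1. RNA processing and translation held 39 genes, led by Khsrp, for a splicing and decay factor (7.71-fold), and membrane trafficking with the lysosome and lipid transport 34, led by Npc2 and by Fyco1, for an adaptor of autophagosome transport (8.42-fold).

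The remaining roles were smaller. Protein folding, ubiquitin and proteolysis held 29 genes and only 3 of them reached a fold of 5, with Prss57, a serine protease gene, highest at 6.64-fold. The cytoskeleton, cilia and adhesion held 27 (Ift20 highest), chromatin and histones 18 (Mbd3, for a subunit of the NuRD complex, at 6.28-fold), and ion, solute and amino acid transport 9 (Slc25a23 and Lrrc8d highest). The 14 genes of the cell cycle, DNA replication and repair had the highest median fold (4.81), led by Cdca2, for a chromosome-bound phosphatase regulator (8.78-fold), Ccng2, an atypical cyclin gene (6.74-fold), and Chek2, a checkpoint kinase gene (6.28-fold). The median folds of the other groups ran from 3.44 to 4.15. The genes of highest fold in a role were picked after their values were seen.

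**Figure D5:**
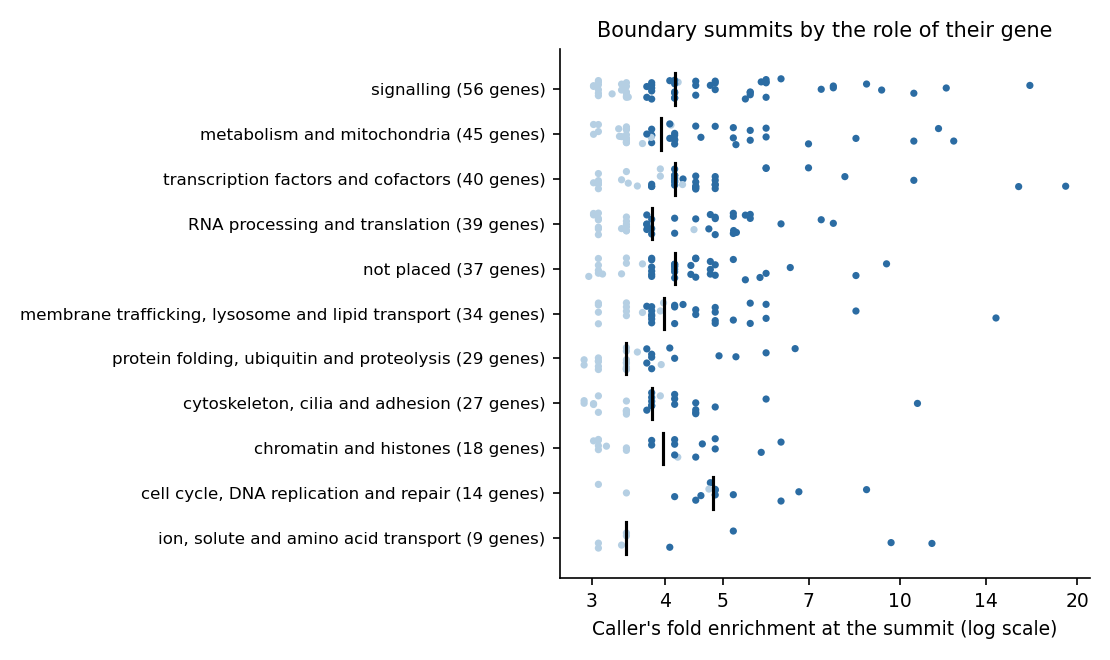
Caller's fold enrichment (horizontal axis, log scale) of each boundary summit, one point a summit, by the role of its gene, with a black line at the median and dark points for a q of at most 0.05 and light points above it. The points overlap widely in every role, and the medians lie between 3.44 and 4.81.

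Of 697 genes in 22 pathway and cell type lists, 29 (4.16%) had a boundary summit, beside 1.59% of all protein-coding genes. The lists were chosen with earlier results of these data known, so nothing is tested on them. In the pluripotency list 3 of 40 genes had one. These were Tcf3, Rif1, a telomere and replication timing gene (11 fragments, 4.86-fold), and Etv5, an ETS factor gene (9 fragments, 3.92-fold, short of a q of 0.05). Tcf3 here is the E protein gene, and the older use of that symbol for Tcf7l1 is what placed it in a pluripotency list. Among E proteins and ID genes 2 of 7 had a boundary summit, Tcf3 and Id3, which encode partners in the same dimers. Among GATA factors and cofactors 2 of 16 did, Zfpm1, encoding the cofactor FOG1 (540 and 197 bp upstream, 11 and 9 fragments, 4.86-fold and 4.15-fold), and Gatad2a, a NuRD subunit gene (64 bp upstream, 8 fragments, 3.79-fold). No GATA factor gene itself was among the boundary genes.

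Signalling lists held a few genes each, to be read beside the 1.59% of all protein-coding genes. In the WNT list 4 of 34 genes had a boundary summit, and 2 of them reached a q of 0.05, Porcn and Gsk3b, a kinase gene of the beta-catenin destruction complex (1 bp upstream, 13 fragments, 5.57-fold). The others were its paralog Gsk3a (13 fragments over a raised background of 0.406, 4.20-fold) and the R-spondin receptor gene Lgr5 (7 fragments, 3.44-fold). In the FGF-ERK list 3 of 31 did. They were Map2k2, the MEK2 gene, with summits 414 and 665 bp inside it (4.07-fold and 5.47-fold), Dusp6, an ERK phosphatase gene (7 bp upstream, 9 fragments, 4.15-fold), and Etv5. In the BMP and TGF-beta list the 2 of 35 were Smad5, a BMP effector gene (20 fragments, background 1.0, 4.28-fold), and Smad6, an inhibitor gene (6 fragments, 3.02-fold), and neither reached a q of 0.05.

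Among metabolic lists, also to be read beside 1.59% of all protein-coding genes, the TCA cycle and glycolysis had 4 of 41 genes. Cs and Pcx, the pyruvate carboxylase gene (10 fragments, 4.50-fold), reached a q of 0.05, and Pdha1, of pyruvate dehydrogenase (7 fragments, 3.37-fold), and Aco1, the cytosolic aconitase gene (6 fragments, 3.02-fold), did not. In the lysosome and cholesterol list the 3 of 30 were Npc2 and 2 regulators of sterol synthesis, Insig1 (3.78-fold) and Srebf2 (3.59-fold), neither of which reached a q of 0.05. Psat1 was the 1 of 20 for serine and one-carbon metabolism.

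Housekeeping lists held 1 or 2 such genes each, to be read beside 1.59% of all protein-coding genes. The counts were 2 of 40 for ubiquitin and the proteasome (Rps27a at 3.72-fold and Psmd3 at 3.08-fold), 1 of 50 for splicing (Rbm25, 4.86-fold), 1 of 48 for ribosomal proteins (Rpl13, 3.08-fold) and 1 of 42 for DNA repair (Chek2). As shares these were 5%, 2%, 2.08% and 2.38%. By symbol family, zinc finger genes had 8 of 465 (1.72%) and solute carriers 5 of 389 (1.29%), both near the share of all genes. MAP kinase and dual-specificity phosphatase genes had 4 of 73 (5.48%). None of 1516 olfactory, vomeronasal and taste receptor genes, of 109 keratin genes or of 93 SOX, FOX, KLF and TBX factor genes had a boundary summit. At the share of all genes, the keratin and the SOX, FOX, KLF and TBX families are too small for this to say much.

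The germ cell list, which stands for the labelled cells, had 2 of 30 genes, and both are genes for which the reporter transgenes are named. Prdm1 had 9 fragments 3 bp upstream of its start (4.15-fold) over the genome-wide background. Dppa3 had 3 boundary summits in 1 interval, with 31, 22 and 22 fragments and folds of only 3.18, 4.62 and 4.20. Their control backgrounds were 3.0, 1.01 and 1.22 on the caller's scale, against 0.0608 across the genome. Any transgene copies of these sequences and the native genes cannot be told apart in the list. No gene of the meiosis list (0 of 49), the oocyte list (0 of 20) or the retinoic acid list (0 of 21) had a boundary summit. Nor did any of the chromatin and DNA methylation list (0 of 49) or the mitotic cell cycle list (0 of 33). The share over all protein-coding genes was 1.59%, so lists of this size can hold none without standing apart from it. By the hand-assigned roles, 18 boundary genes were of chromatin and histones. Another 14 were of the cell cycle, DNA replication and repair.

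For the other cells that a sort could hold, the somatic gonad list had 1 of 25 genes (Lgr5, above). The blood list (31 genes) and the endothelium list (20 genes) had 0. With a share of 1.59% over all protein-coding genes, lists this small can hold none without standing apart from it. The counts are of summits and say nothing on how much of each gene's RNA the cells made.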

How the data were processed

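GATA2 CUT&Tag was measured in 2 GATA2 libraries and 2 inputs, and 1 combined peak list of 995 summits was used. Per the submitters' processing notes, the authors used the peak caller MACS2 2.2.6 and the aligner Bowtie2 2.3.5.1 on GRCm38 (mm10), beside bedtools 2.29.2, Picard 2.23.0, SAMtools and the trimmer Trimmomatic 0.39. The sources used here give neither their settings nor the control. The deposited columns hold the caller's fold (a ratio), −log10 p, −log10 q and a display score, which in all 995 entries was the whole part of 10 times −log10 p. The lowest −log10 p was 3.09.

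Fragment numbers were solved from the deposited fold and −log10 p (scale 0.378, background 0.0608, 995 of 995 solved within 0.05 of a whole number). For 217 summits more than 1 solution was possible. On summits simulated from the solved values with the same formulas, 989 of 989 were recovered. This checks the arithmetic and not the assumed model of the caller.

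Gene boundaries came from a RefSeq table of GRCm38.p6, and strand from the RefSeq promoter table (17492 of 21900 protein-coding genes). Promoters of genes missing from that table were not read. Shares have exact (Clopper-Pearson) 95% intervals. The 4 share comparisons used Fisher's exact test, two-sided, with Benjamini-Hochberg adjustment (scipy 1.17.1, pandas 2.3.3, Python 3.11.15). Other windows, thresholds, 1 summit per interval and, added after the data were seen, lncRNA partners, CpG-rich windows, another choice of window and the list without Prdm1 and Dppa3 were tried as alternatives.

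The members, lists and tests were chosen with earlier results of these data known. Named genes are those of the 12 strongest start summits, the end summits, the 8 strongest pairs, genes with 2 or more boundary summits, list genes (up to 5 a list) and the 3 summits on each side of the limit. Outside this rule, the pair Peg3 and Usp29, the pairs tied with the last of the 8 and the genes of highest fold in a role (Khsrp, Cdca2, Ccng2, Mbd3 and others) were named after their values were seen. Promoters were chosen for the 5 strongest start summits with a GATA motif, of which Slc25a23 is not printed because its motif lay in the transcribed part, and for the 3 strongest without. Among the latter, Tcf3, Cs and Srgap2 had too few untranscribed bases to show and the next in fold was taken. No bases of chromosome 18 are shown.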

Additional observations from a re-analysis of the deposited data

How the results depend on the processing

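No paired analysis was possible because the deposited list pools both GATA2 libraries and carries no replicate column, and for the same reason no replicate could be left out. Counted only among the 674 summits with a q of at most 0.05, boundary summits numbered 228, and among the 177 with a −log10 q of 5 or more, 48. The list genes fell from 29 to 18 at a q of at most 0.05. The share of starts was 99.2% within 500 bp and 95.1% within 2000 bp. The promoters with a GATA motif were 59.7% with the 4-letter core, against 54.0% of all promoter windows. With the 6-letter motif and only summits whose −log10 q reached 5, they were 30.8% (12 of 39), against 26.7% of all. The exact 95% interval of the 30.8% covers both 26.7% and the 23.9% found at all start summits. A rise of the motif share with summit strength is therefore not shown. With lncRNA partners the share at pairs was 21.2%. With a fold of 5 or more in place of q, 2 differences changed sign, and neither passed under either measure. Starts minus ends became 7.29 percentage points (from -36.99) and pairs minus other starts -6.21 points (from 7.92). The lower share of boundary summits passing q kept its direction and passed with 1 summit per interval, with a fold of 5 or more and without Prdm1 and Dppa3 (Fisher's exact test, adjusted p from 0.00157 to 0.0428). Of 44 recounts of single lists, 34 stayed within 1.5 times and 10 moved. At a median of 9 inferred fragments, weak summits carry wide counting error, and absence of a summit does not show that GATA2 was absent.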
